A study of Mus musculus with 6 samples.

Results

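The genes described here encode 7 proteins that move ions across the membranes of pigment cells or sense conditions inside the melanosome: Oca2, Slc45a2, Slc24a5, Slc24a4, Atp7a, Gpr143 and Trpm1. They were chosen by name, with earlier results of these data known. Each had exactly 1 probe set paired with that gene alone, so all 7 of 7 were measured, out of 19938 named genes on the array. RNA came from Melan-Ink4a cells, an immortal line of melanocytes from the skin of C57BL/6J mice whose genotype is given as Ink4a-ARF1 null, in both groups. One group of 3 samples had been kept with NRG1-b1, a form of neuregulin 1 (NRG1), the ligand of the receptor ERBB3, at 10 nM for 21 days, and 3 samples were untreated, with no length of culture given. The deposited treatment text is the same for all 6 samples, so the groups rest on the sample titles and source names. Both groups also received TPA (200 nM), which activates protein kinase C, and cholera toxin (200 pM), which raises cAMP, in medium with serum, and were harvested at 90% confluence. The labels name 1 line and do not say whether the 3 samples of a group were separate cultures, and p-values therefore cover only the spread among the 3, which can be technical. The question was how melanocytes that receive a long NRG1 signal differ in their transcripts from those that do not.

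Melanin is made in melanosomes, organelles related to lysosomes, which start out acidic and become closer to neutral as they mature. Tyrosinase, the copper enzyme that starts melanin synthesis, works poorly in acid, so anion and proton carriers that raise the pH, and the pump that supplies copper, set how much pigment a given amount of enzyme can make. Loss of OCA2, SLC45A2 or SLC24A5 causes albinism in humans, and coat colour mutants in mice carry changes in the same genes.

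Signals are given as log2 values, on which a difference of 1 is a doubling. Across the 6 arrays the median signal of all probe sets lay between 6.99 and 7.07. Arrays of a group correlated at 0.996 to 0.997 over the tested genes and arrays of different groups at 0.981 to 0.986. Genes are called risen or fallen at a limma p-value under 0.05 after Benjamini-Hochberg adjustment over all genes, which held for 4168 genes (20.9%), of which 59% rose. After quantile normalization 48.5% of the called genes rose. With the genes below the median level left out of the test, 4372 were called, 1776 of them falls. The called share was thus larger among the brighter genes. The pigment cell markers Mitf, Sox10, Tyr, Tyrp1, Dct, Pmel and Mlana were all above the median level of the tested genes in these samples. Their mean signal, averaged before taking the log, was 12.69 to 12.71 with NRG1 and 13.12 to 13.13 without. Of 5 keratinocyte and 3 endothelial markers, all were below the median level of the tested genes. Of 8 fibroblast markers 5 were below it, 1, the collagen gene Col1a1, rose (0.86) and 7 were not called, among them Col1a2 at -0.27 (limma, adjusted p = 0.0551). The list's median change was -0.051, while its mean signal, in which the brightest gene Col1a1 weighs most, was 7.34 to 7.44 with NRG1 and 7.08 to 7.24 without. Of 3 leukocyte markers 1, Cd68, rose (under 8 of 15 alternative settings), and that list lay at 6.54 to 6.66 with NRG1 and 6.39 to 6.49 without. Of the Schwann cell markers 1 was measured, Mbp, at 7.01 to 7.11 with NRG1 and 6.90 to 7.18 without. The part of these markers in the results was not tested. In RNA from whole cultures, fewer cells that express a gene and less RNA per cell cannot be told apart.

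With NRG1, 6 of the 7 genes fell and 1, the copper pump gene Atp7a, rose. Over all genes, 8.56% fell and 12.3% rose. As the 7 were chosen with earlier results known, they are not a blind sample to set against these shares. The median change of the 7 genes was -1.37 on the log2 scale, against -0.029 for all tested genes. Among the 7, 4 fell by at least 1 on the log2 scale, which 83 of all genes did (0.416%). For all 7 genes the 3 NRG1 values lay entirely on one side of the 3 untreated values, as they did for 36.7% of all genes. An exact permutation test over the 6 samples gave p = 0.1 for each of them, which is the smallest p that 3 samples against 3 can give. When limma's treat test asked for more than a 1.2-fold change, 6 of the 7 passed, and 6.14% of all genes.

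**Figure D1:**
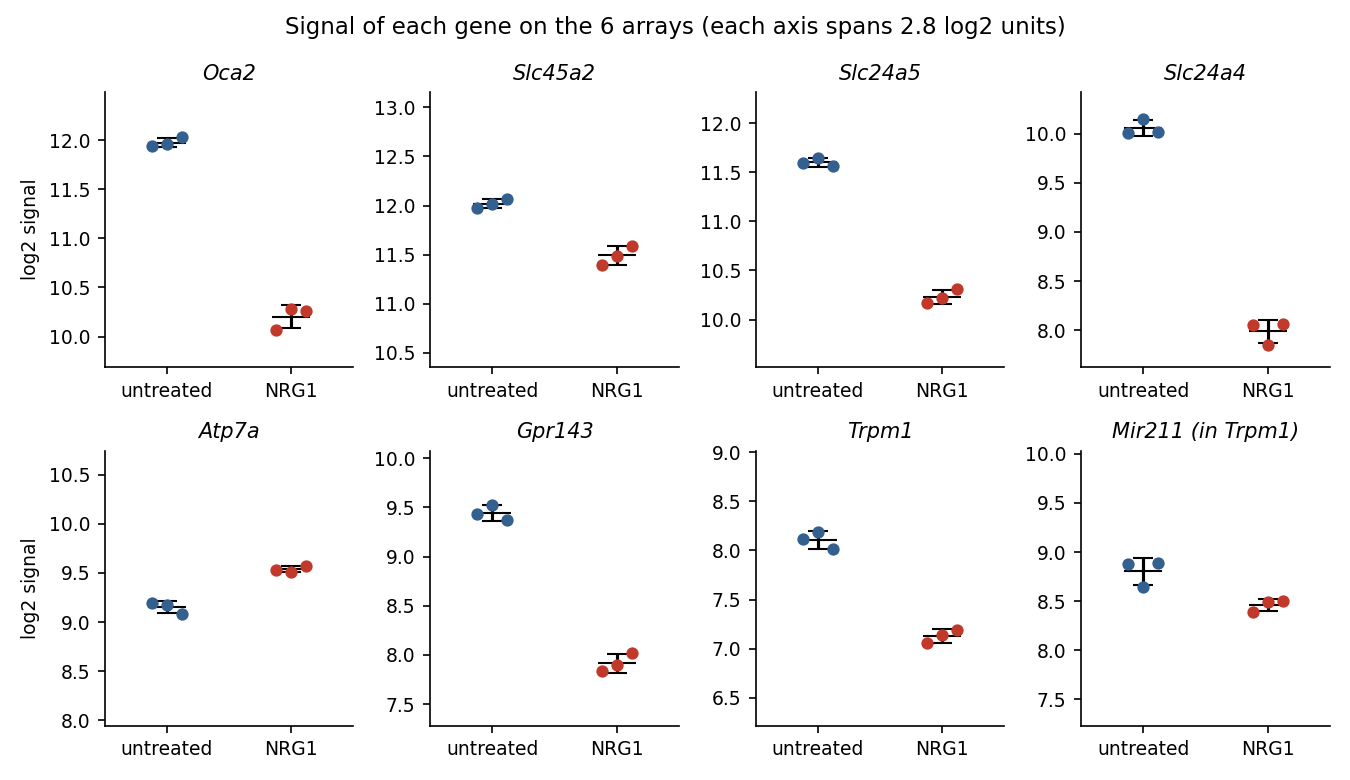
Log2 signal of the 7 genes and of Mir211, the microRNA gene inside Trpm1, on each array, with untreated arrays in blue and NRG1 arrays in red, 3 each. Horizontal black lines give the group mean and the bars the SD. The red points lie below the blue in every panel but that of Atp7a, where they lie above.

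Mitf, which also fell, is the gene of the transcription factor that drives the pigment cell programme and binds the letters CACGTG and CATGTG. The sequence before the starts of the genes is shown for these letters. Whether Mitf has a part in any of the changes was not tested. Windows from 250 bases before to 50 after an annotated start were taken from RefSeq (GRCm38.p6) and held 6 starts of 5 of the genes: Oca2, Slc24a5, Slc24a4, Atp7a and 2 starts of Trpm1. No window was available for Slc45a2 and Gpr143, which both fell. Only the bases before the outermost start of each gene are printed, which for Oca2 leaves the first 84 bases of the window, and 30 bases around the match for the start inside Trpm1. All are read on the strand of the gene. Capitals mark matches on either strand to CACGTG (its own reverse complement), to CATGTG (which reads as CACATG from the other strand), and to the 7 letters TCATGTG where these extend the match. Tyr, the tyrosinase gene, is shown beside them.
Slc24a5, chr2:125067877-125068126: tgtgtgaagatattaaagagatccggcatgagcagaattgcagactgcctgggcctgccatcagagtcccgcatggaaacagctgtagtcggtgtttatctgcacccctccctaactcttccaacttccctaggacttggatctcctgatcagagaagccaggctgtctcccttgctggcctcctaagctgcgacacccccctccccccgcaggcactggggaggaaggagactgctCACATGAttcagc
Trpm1 outer start, chr7:64153585-64153834: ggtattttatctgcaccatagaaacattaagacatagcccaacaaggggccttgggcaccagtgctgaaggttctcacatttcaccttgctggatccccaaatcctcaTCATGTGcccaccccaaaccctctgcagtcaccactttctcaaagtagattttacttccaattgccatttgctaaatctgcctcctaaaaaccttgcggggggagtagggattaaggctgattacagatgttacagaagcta
Trpm1 inner start, chr7:64185218-64185247: agtaattggaagCACGTGgctcctcttcct
Oca2, chr7:56239509-56239592: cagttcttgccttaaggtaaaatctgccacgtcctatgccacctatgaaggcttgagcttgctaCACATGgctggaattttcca
Slc24a4, chr12:102128477-102128726: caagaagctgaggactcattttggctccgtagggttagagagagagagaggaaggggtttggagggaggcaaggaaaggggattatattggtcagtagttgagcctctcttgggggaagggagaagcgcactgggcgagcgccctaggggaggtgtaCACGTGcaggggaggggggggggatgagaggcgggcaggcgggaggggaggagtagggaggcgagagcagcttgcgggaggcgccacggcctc
Atp7a, chrX:106026974-106027223: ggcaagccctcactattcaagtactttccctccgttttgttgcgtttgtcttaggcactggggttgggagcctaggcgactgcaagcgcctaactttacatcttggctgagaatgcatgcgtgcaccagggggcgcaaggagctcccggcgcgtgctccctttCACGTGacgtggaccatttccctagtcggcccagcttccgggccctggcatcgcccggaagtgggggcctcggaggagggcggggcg
Tyr, minus strand of chr7:87493513-87493762: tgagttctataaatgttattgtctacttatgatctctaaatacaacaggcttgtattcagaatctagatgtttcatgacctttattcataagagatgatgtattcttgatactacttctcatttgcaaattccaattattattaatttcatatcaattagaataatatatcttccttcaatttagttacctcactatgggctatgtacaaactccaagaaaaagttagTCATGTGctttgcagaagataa
The genes above Tyr lie on the plus strand. All 6 windows held CACGTG or CATGTG in either orientation, as did 20.4% of the 32851 windows in the table. CATGTG was in 4 of the 6 (14.2% of all windows) and CACGTG in 3 (7.15%). The longer TCATGTG, which overlaps CATGTG, was in 2 of the 6, those of Slc24a5 and of the outer Trpm1 start (3.77% of all windows), and in that of Tyr. The first letter of that match lay 13 bases before the start in Slc24a5, 142 bases before the outer start in Trpm1 and 22 bases before it in Tyr. Atp7a, the gene that rose, held CACGTG 87 bases before its start, and Slc24a4, which fell the most of the 7, held it 93 bases before. The inner window of Trpm1 also held CACATG, 37 bases after its start. A match in these letters is a description and says nothing of whether a factor binds there.

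The carriers that counter the acid of the melanosome came first by role. Oca2 encodes a melanosomal anion channel or carrier that lets chloride through and raises the pH. Its log2 signal was 11.94, 11.96 and 12.03 in the untreated samples and 10.07, 10.28 and 10.26 with NRG1. The 2 groups were 1.65 log2 units apart at their nearest values, and the spread within a group was at most 0.22. Oca2 fell by 1.77 ± 0.072 (SE) on the log2 scale, to 29.3% of the untreated level (limma, adjusted p = 1.09e-07). Slc45a2 encodes a carrier that is thought to move protons and sugar out of the melanosome and that tyrosinase needs to be active there. It was at 11.98, 12.01 and 12.07 untreated and at 11.40, 11.49 and 11.59 with NRG1. These groups were apart by 0.39, and Slc45a2 fell by 0.53 ± 0.067, to 69.4% of the untreated level (limma, adjusted p = 0.000264).

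Both exchangers of the Slc24 family fell. These proteins swap calcium and potassium against sodium. Slc24a5 works on membranes inside the cell, in the trans-Golgi network and melanosomes, and its loss lightens skin and eyes. Its log2 signal was 11.59, 11.65 and 11.56 in untreated samples and 10.17, 10.22 and 10.31 with NRG1. All NRG1 values were at least 1.25 log2 units below the untreated ones, and the fall was 1.37 ± 0.063 (SE; limma, adjusted p = 2.14e-07). Slc24a4 acts at the surface of cells, and variants near the human gene go with hair and eye colour. It was at 10.01, 10.15 and 10.02 untreated and at 8.05, 7.85 and 8.06 with NRG1. It had the largest change of the 7 genes, -2.07 ± 0.076, to 23.8% of the untreated level (limma, adjusted p = 4.94e-08), and it ranked 9 among all 19938 genes ordered from the steepest fall. Within arrays, the signal of Slc24a5 minus that of Slc24a4 went from 1.54 ± 0.043 untreated to 2.24 ± 0.123 with NRG1 (SD, n = 3 each), so that Slc24a4 fell by 0.70 ± 0.075 (SE) more (exact permutation p = 0.1, adjusted over 15 pairs p = 0.115).

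Gpr143, the gene mutated in ocular albinism, encodes a G protein-coupled receptor of the melanosome membrane, not a transporter, which limits the size of melanosomes. Its log2 signal was 9.44, 9.53 and 9.37 untreated and 7.83, 7.89 and 8.02 with NRG1. The groups were 1.35 apart, while the values within a group spanned at most 0.19, and the change was -1.53 ± 0.071 (SE), to 34.6% of the untreated level (limma, adjusted p = 2.28e-07). Trpm1 encodes a cation channel, first found as a transcript that is lost in aggressive melanoma and needed in the retina for the response to light. It was at 8.11, 8.19 and 8.01 untreated and at 7.06, 7.13 and 7.19 with NRG1. Trpm1 fell by 0.98 ± 0.069, to 50.8% of the untreated level (limma, adjusted p = 4.31e-06), without overlap of the groups. With NRG1 its mean of 7.13 was close to the middle of all genes on these arrays, and array signals are compressed towards background, so that its fall could be understated.

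An intron of Trpm1 is known to hold the microRNA gene Mir211, and in RefSeq (GRCm38.p6) its hairpin lies within the span of Trpm1. The array has a probe set paired with Mir211 alone. The mature sequences are given with the seed, bases 2 to 8, in capitals, as the microRNA is read from the same primary transcript as the channel.
mmu-miR-211-5p, plus strand of chr7:64205831-64205852: uUCCCUUUgucauccuuugccu
mmu-miR-211-3p, plus strand of chr7:64205868-64205888: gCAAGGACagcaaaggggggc
The Mir211 probe set was at 8.88, 8.65 and 8.89 untreated and at 8.39, 8.49 and 8.50 with NRG1. It fell by 0.34 ± 0.077 (SE; limma, adjusted p = 0.00975), a smaller change than that of the Trpm1 probe set, with 95% confidence intervals of -0.52 to -0.17 for Mir211 and -1.13 to -0.82 for Trpm1. The difference of these changes was not tested. Its probes were not examined, so whether it reads the hairpin, the intron around it or the mature forms is not known here.

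Atp7a encodes the pump that moves copper into the Golgi and into melanosomes, where tyrosinase takes it up. Its log2 signal was 9.20, 9.18 and 9.08 in untreated samples and 9.53, 9.51 and 9.57 with NRG1. All 3 NRG1 samples were above all 3 untreated ones, by at least 0.32, and the rise was 0.39 ± 0.06 (SE), or 1.31-fold (limma, adjusted p = 0.00106). It was the 1 gene of the 7 that did not pass the treat test for more than a 1.2-fold change (limma, adjusted p = 0.391).

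**Figure D2:**
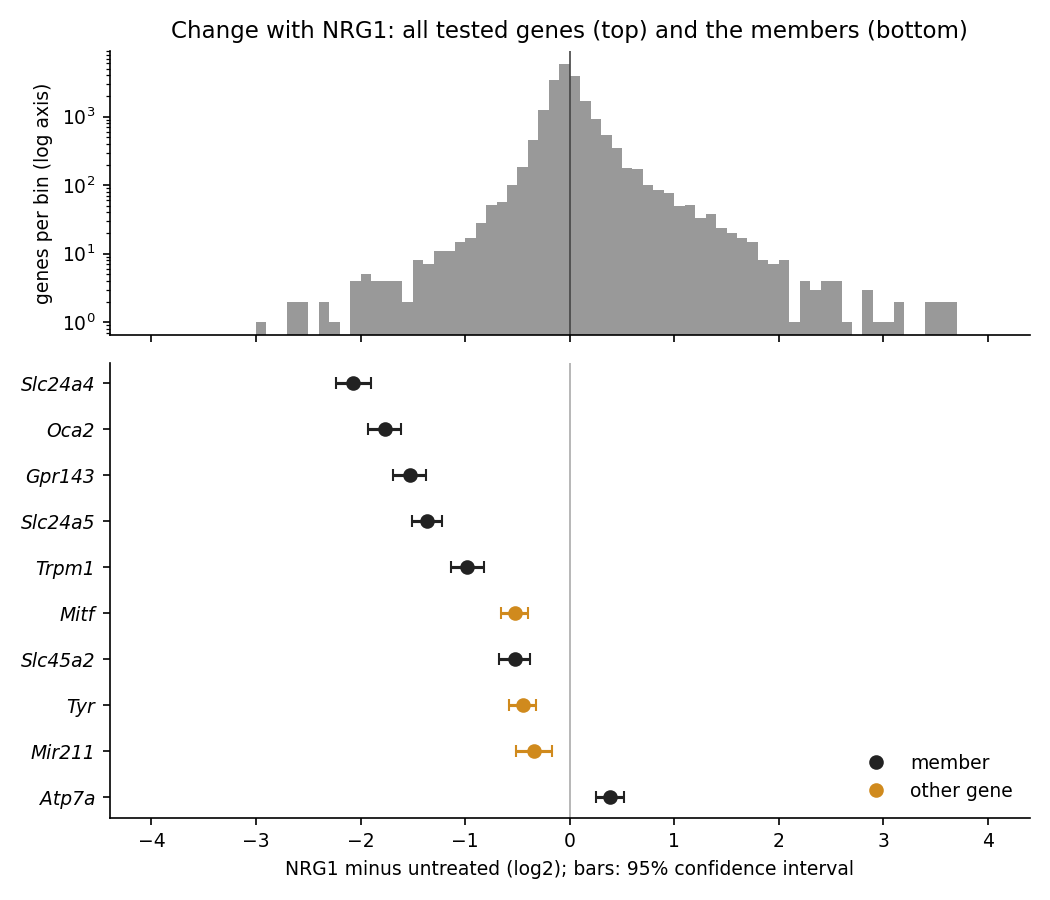
Upper panel, number of genes (log axis) by their change, NRG1 minus untreated, on the log2 scale, over all 19938 tested genes. Lower panel, change of each of the 7 genes (black) and of Mir211, Tyr and Mitf (orange) with its 95% confidence interval from limma, from Slc24a4 at -2.07 to Atp7a at 0.39.

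The 7 changes ran from -2.07 to 0.39, and their order from the steepest fall was Slc24a4, Oca2, Gpr143, Slc24a5, Trpm1, Slc45a2 and Atp7a. Neighbours in this order differed within arrays by 0.30 ± 0.135 (SE) for Slc24a4 and Oca2, 0.24 ± 0.084 for Oca2 and Gpr143, 0.16 ± 0.024 for Gpr143 and Slc24a5, 0.39 ± 0.03 for Slc24a5 and Trpm1, 0.45 ± 0.074 for Trpm1 and Slc45a2 and 0.91 ± 0.074 for Slc45a2 and Atp7a. These pairs follow from the order itself, so they were not tested. The confidence intervals of Slc24a4 (-2.24 to -1.90) and Oca2 (-1.93 to -1.61) overlapped, as did those of Oca2 and Gpr143 (-1.69 to -1.37) and of Gpr143 and Slc24a5 (-1.51 to -1.22).

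Set against Tyr, which fell by 0.45 ± 0.058 (SE; limma, adjusted p = 0.000274), 6 of the 7 genes shifted by more than the spread between arrays. The signal of Oca2 minus that of Tyr on the same array fell by 1.32 ± 0.078 (SE) with NRG1. The same difference fell by 1.62 ± 0.073 for Slc24a4, by 1.08 ± 0.052 for Gpr143, by 0.91 ± 0.031 for Slc24a5 and by 0.53 ± 0.048 for Trpm1. For Atp7a it rose by 0.84 ± 0.019. In these 6 genes the groups did not overlap, and the exact permutation test gave p = 0.1, the smallest it can give (adjusted over 15 pairs, p = 0.115). Slc45a2 minus Tyr was at -0.076 ± 0.068 with NRG1 and at -0.0007 ± 0.071 without (SD, n = 3 each), with overlapping groups (exact permutation p = 0.4, adjusted p = 0.429).

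Mitf fell by 0.53 ± 0.057 (SE; limma, adjusted p = 8.5e-05). Slc45a2 changed by nearly the same amount, with a difference to Mitf of 0.353 ± 0.077 with NRG1 and 0.353 ± 0.074 without (SD, n = 3 each; exact permutation p = 1, adjusted over 15 pairs p = 1). The other 5 genes that fell did so by more than Mitf on the same arrays, with a difference of the changes of -0.45 ± 0.043 (SE) for Trpm1 and -1.54 ± 0.078 for Slc24a4. Between these came Slc24a5 at -0.84 ± 0.033, Gpr143 at -1.0 ± 0.053 and Oca2 at -1.24 ± 0.075. Atp7a rose by 0.91 ± 0.024 against Mitf. The groups did not overlap in any of these 6, and p was again 0.1 for each (exact permutation test; adjusted p = 0.115).

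Of 20 measured genes of the same families (the other Slc24 and Slc45 carriers, the Slc13 carriers that resemble Oca2, Atp7b and the other Trpm channels), 2 rose, 1 fell and 17 were not called, with a median change of -0.058. The share called, 15%, is near the 20.9% of all genes. Of the 20, 14 were below the median level of the tested genes, where differences can be understated. Slc45a4 rose by 0.29 ± 0.076 (SE; limma, adjusted p = 0.0223), a call that held under 10 of 15 alternative settings, and Slc13a5, a citrate carrier gene, by 0.45 ± 0.104 (adjusted p = 0.0113). Trpm8, the gene of the cold receptor channel, fell by 0.26 ± 0.064 (adjusted p = 0.0147) from a low level of 5.63. Without NRG1 replicate 1, 1 gene of the list passed. The other Slc24 exchanger genes were at -0.12 for Slc24a1, -0.11 for Slc24a2 and -0.097 for Slc24a3 (limma, adjusted p from 0.249 to 0.348).

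Of 19 measured genes of other channels and carriers of lysosomes, endosomes or melanosomes, 4 fell, 2 rose and 13 were not called, with a median change of -0.092. That is 31.6% called, against 20.9% of all genes, and the count was 3 without NRG1 replicate 1 and also 3 without NRG1 replicate 3. Of the 19, only 3 were below the median level of the tested genes, and brighter genes were called more often. Mcoln3, which encodes a calcium channel of endosomes, fell by 0.55 ± 0.062 (SE; limma, adjusted p = 0.000121), from 12.13, 12.22 and 12.23 untreated to 11.60, 11.63 and 11.71. Clcn7, the gene of the lysosomal chloride-proton exchanger, fell by 0.27 ± 0.063 (adjusted p = 0.0114). Clcn5, from the endosomal branch of that family, rose instead, by 0.98 ± 0.061 (adjusted p = 1.58e-06), from 8.68, 8.65 and 8.55 to 9.60, 9.64 and 9.59. Mcoln2, a relative of Mcoln3, rose by 0.36 ± 0.092 (adjusted p = 0.0171). The melanosomal channel gene Tpcn2 (0.17) and the cysteine carrier gene Mfsd12 (-0.092) were not called (limma, adjusted p = 0.0865 and 0.384). After quantile normalization 7 of the list fell and 2 rose.

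Subunits of the proton pump, which acidifies the organelle that Oca2 and Slc45a2 bring towards neutral, fell or were not called. Of 24 measured, 8 fell and 0 rose by limma, also 0 at an unadjusted p under 0.05, with a median change of -0.13. Here 33.3% were called, while among all genes 20.9% were called and 8.56% fell. Of the 24, only 4 were below the median level of the tested genes, and brighter genes were called more often. Atp6v0d2, a subunit with restricted expression, fell by 1.90 ± 0.111 (SE; limma, adjusted p = 1.16e-06). It was at 8.35, 8.60 and 8.19 untreated and at 6.60, 6.56 and 6.30 with NRG1. Atp6v1b2, from the ring that binds ATP, fell by 0.44 ± 0.056 (adjusted p = 0.00027). The 8 calls became 5 without NRG1 replicate 1, NRG1 replicate 3, untreated replicate 1 or untreated replicate 3.

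Of 15 measured genes of copper handling, the process Atp7a belongs to, 3 rose, 1 fell and 11 were not called, with a median change of -0.085. The share called, 26.7%, is near the 20.9% of all genes. Only 1 of the 15 was below the median level of the tested genes, and brighter genes were called more often. Slc31a1, which encodes the copper importer of the plasma membrane, rose by 0.47 ± 0.071 (SE; limma, adjusted p = 0.000891), from 8.65, 8.76 and 8.61 untreated to 9.19, 9.03 and 9.20. The metal reductase genes Steap2 and Steap3 rose by 0.44 (adjusted p = 0.00202) and 0.24 (adjusted p = 0.0109), and the metallothionein gene Mt2 fell by 0.31 (adjusted p = 0.0156). The copper chaperone gene Atox1, whose product hands copper to Atp7a, was at -0.11 (adjusted p = 0.278). After quantile normalization the list had 3 rises and 4 falls. With the mean of the probe sets of a gene it had 2 rises and 2 falls. Steap2 was not called there (limma, adjusted p = 0.0539). Of 9 measured copper enzymes of the secretory pathway, 7 rose and 1, Tyr, fell, and the extracellular superoxide dismutase gene Sod3 was not called (-0.13, adjusted p = 0.271). That is 88.9% called, while among all genes 20.9% were called and 12.3% rose. The list was chosen with earlier results of these data known. The median change of these enzymes was 0.58, and 5 of the 9 were below the median level of the tested genes. Cp, the ceruloplasmin gene, rose by 2.06 ± 0.069 (adjusted p = 2.58e-08), from 5.64, 5.48 and 5.58 untreated to 7.53, 7.69 and 7.67. Lox, which encodes lysyl oxidase, an enzyme that cross-links collagen, rose by 1.21 ± 0.081 (adjusted p = 2.75e-06), from 4.80, 4.97 and 4.67 to 5.96, 6.02 and 6.09. In both genes the groups lay far apart, though the untreated signals were near the low end of the scale. Loxl1, Loxl3, Loxl4, Pam and Dbh rose by 0.30 to 0.73 and were named after their values were seen.

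**Figure D3:**
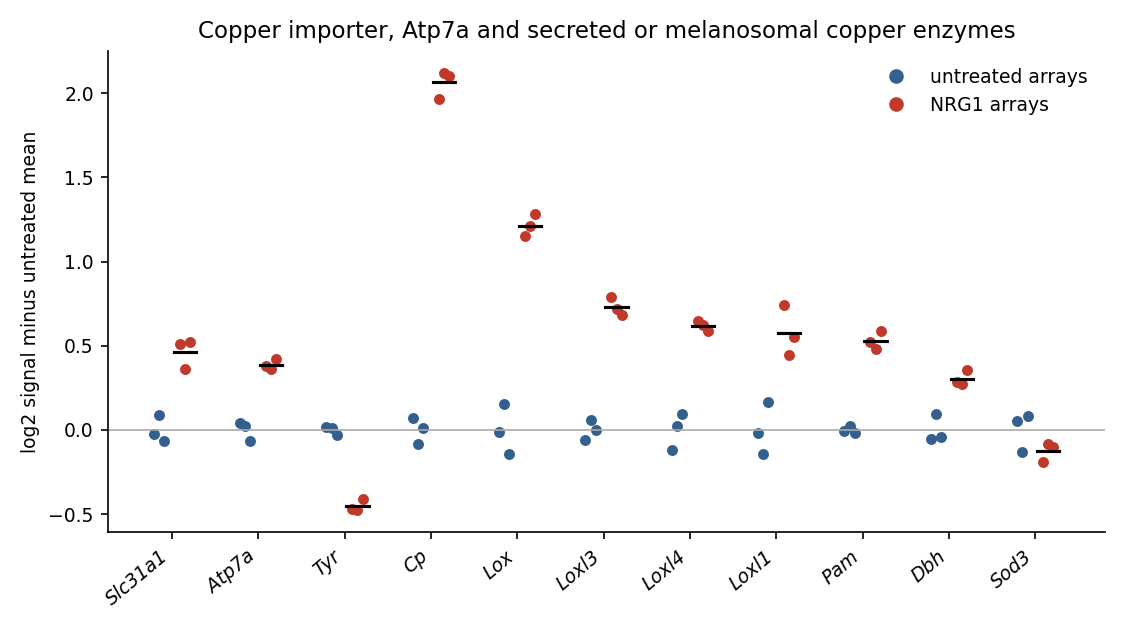
Log2 signal of each array minus the untreated mean of that gene, for the copper importer gene Slc31a1, the pump gene Atp7a and 9 genes of copper enzymes; untreated arrays are blue, NRG1 arrays red and black lines the NRG1 mean. Slc31a1, Atp7a and 7 enzyme genes rose, Tyr fell, and Sod3 was not called.

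Calcium pumps and exchangers outside the Slc24 family gave 1 rise among 11 measured genes and 0 falls by limma, also 0 falls at an unadjusted p under 0.05. That is 9.09% called, against 20.9% of all genes. The gene that rose was Atp2a2, which encodes the calcium pump of the endoplasmic reticulum (0.46 ± 0.06, SE; adjusted p = 0.000292). The count was 2 without untreated replicate 2, and after quantile normalization 1 rose and 1 fell. Of 12 partners of Gpr143 and Trpm1, 4 rose and 0 fell by limma (0 at an unadjusted p under 0.05). These were the G protein genes Gnao1 (0.33), Gnai3 (0.30), Gnai2 (0.27) and Gna11 (0.26), with adjusted p from 0.00701 to 0.0136. Of the partners 33.3% were called, while among all genes 20.9% were called and 12.3% rose. Below the median level of the tested genes were 4 of the 12. At a minimum change of 1.2-fold 0 of the partners were called. Gnai3 is the G protein through which Gpr143 is known to act on melanosome size, and its signal rose while that of Gpr143 fell. Without NRG1 replicate 1, 2 of the 4 calls were left.

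Of 28 measured genes of the machinery that carries such cargo from endosomes to melanosomes, 6 fell, 2 rose and 20 were not called, with a median change of -0.061. The share called, 28.6%, is not far from the 20.9% of all genes, of which 8.56% fell and 12.3% rose. Only 1 of the 28 was below the median level of the tested genes, and brighter genes were called more often. Hps4, which encodes a subunit of BLOC-3, fell by 0.70 ± 0.064 (SE; limma, adjusted p = 2.61e-05), and Rab38, the gene of a small GTPase that works with BLOC-3 in cargo delivery, by 0.63 ± 0.06 (adjusted p = 3.32e-05). Among the other falls, chosen after their values were seen, were those of Rab32 (-0.56) and of the BLOC-2 genes Hps3 (-0.55) and Hps5 (-0.38). The BLOC-2 gene Hps6 (0.051) and the BLOC-3 gene Hps1 (-0.065) were not called (limma, adjusted p = 0.650 and 0.493). The adaptor genes Ap3m1 and Ap1m1 rose by 0.50 (adjusted p = 0.00027) and 0.23 (adjusted p = 0.0359), the second under 8 of 15 alternative settings only. The BLOC-1 genes, whose complex Oca2 and Atp7a are known to need to reach melanosomes, had 1 call, Bloc1s1 (-0.25, adjusted p = 0.0424), which held under 9 of 15 settings. With quantile normalization 10 of the list fell and 1 rose, and with each array centred on its median 6 fell and 1 rose.

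All 6 measured genes of melanin enzymes and the melanosome matrix fell, with a median change of -0.35, against -1.37 for the 7 genes described here, and 4 of the 6 were called after quantile normalization. The steepest were Mlana (-1.09 ± 0.078, SE; limma, adjusted p = 4.61e-06) and Pmel (-0.64 ± 0.059, adjusted p = 2.95e-05), whose product forms the fibrils on which melanin is laid down. Of 9 lineage regulators, Irf4 (-0.78), Pax3 (-0.53) and Mitf fell, Lef1 rose (1.04) and 5 were not called (limma, adjusted p from 1.19e-05 to 8.5e-05 for the called genes). That is 44.4% called, against 20.9% of all genes, and 1 of the 9 was below the median level of the tested genes. Sox10 was at 0.056 (adjusted p = 0.565).

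**Figure D4:**
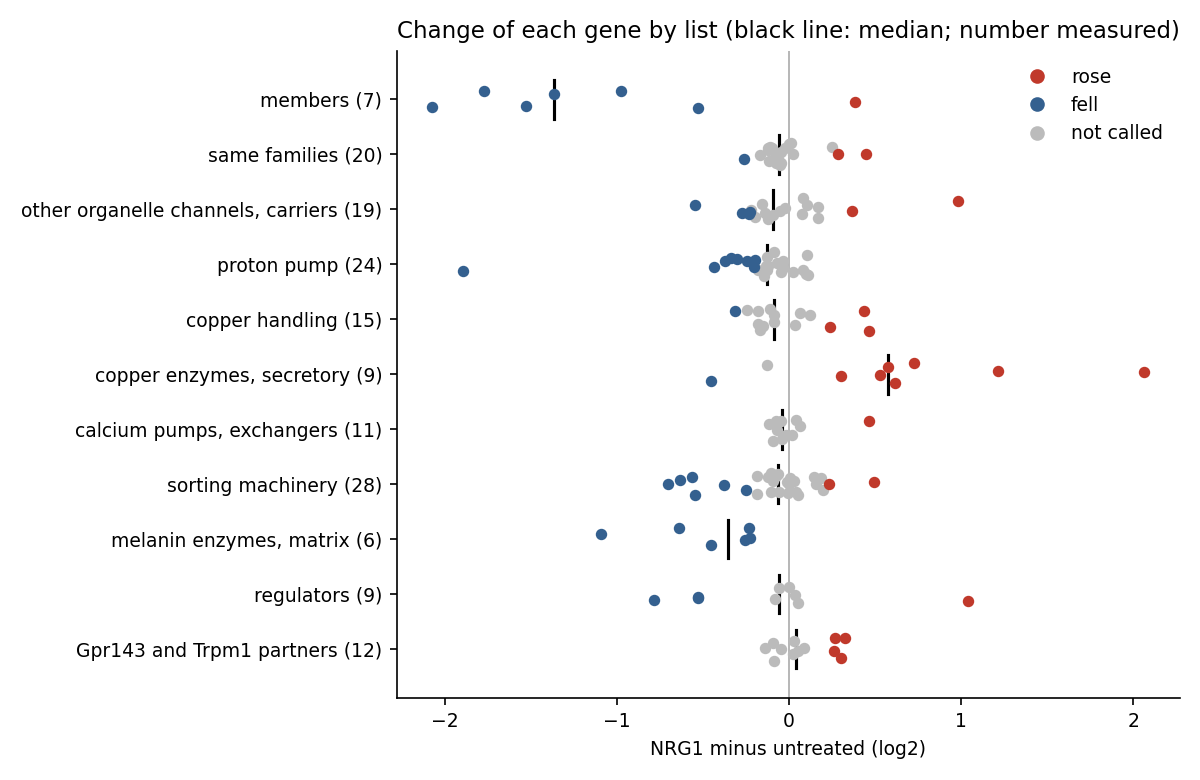
Change of each gene, NRG1 minus untreated, on the log2 scale, for the 7 genes and 10 lists of related genes, with rises in red, falls in blue, genes not called in grey and black lines for medians. The 7 genes have a median of -1.37 and the list medians lie between -0.35 and 0.58.

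The genes with the most similar profiles were found by the Euclidean distance between log2 signals over the 6 arrays, each centred on its own mean, a measure that the difference between the 2 groups dominates. For Oca2 they were Bnc2, a zinc finger gene whose human locus goes with skin colour, at a distance of 0.221, and the adhesion gene Alcam (0.224). For Slc45a2 they were Usp53 (0.0746) and Mcoln3 (0.0767). Slc24a5 was closest to the complement gene C2 (0.0657) and to Ndrg1 (0.0815), and Slc24a4 to the protein kinase gene Prkcq (0.198) and the connexin gene Gjb2 (0.272). Gpr143 had Sytl2 (0.137), whose product tethers melanosomes to the plasma membrane, and Ndrg1 (0.196). Trpm1 was closest to Nuak1 (0.105) and Aph1c (0.118). For Atp7a they were the microtubule end-binding gene Mapre1 (0.049) and the zinc transporter gene Slc30a5 (0.0528).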

How the data were processed

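For each of 6 samples, 200 ng of total RNA was hybridised to an Affymetrix GeneChip (Mouse Gene 1.0 ST). The deposited values are log2 signals per probe set, for which the submitters' processing notes name RMA and GCOS without versions or settings, so background correction and normalization across arrays were done by the authors. That they are log2 was inferred from their range (2.34 to 14.6). Signals are compressed at both ends, so changes of dim and very bright genes can be understated. No scanner files or genome build were used, and 3 arrays per group limit the precision.

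Of 35557 probe sets, 21789 had 1 gene, 1621 several and 12147 were unnamed here. Symbols came from the platform annotation, updated by gene number through RefSeq (GRCm38.p6), where 21698 matched. Per gene the probe set with the highest 6-array mean was kept (19938 genes, no filter). limma 3.58.1 (R 4.3.3; lmFit, eBayes, 2-sided) compared NRG1 with untreated, with Benjamini-Hochberg adjustment over all genes and a threshold of 0.05. Single values were tested by exact 2-sided permutation, adjusted over the 15 pairs. The members and 10 lists (153 of 158 entries measured) were chosen with earlier results of these data known. Each list was described by its counts, and its called genes were named if 4 or fewer, otherwise the 2 largest rises and 2 largest falls. Other genes were named after their values were seen. The fit was tested on simulated data. Alternatives covered normalization, dim genes, probe set choice, variance model, a replicate block, each array left out and a minimum change. The labels do not say that replicate numbers pair samples, so no block was used. Deviations of arrays that share a number correlated at -0.095, -0.16 and 0.074, which cannot settle whether they were paired. The planned protein comparison of Slc24a4 and Slc24a5 was not made here.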

Additional observations from a re-analysis of the deposited data

How the results depend on the processing

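All 7 genes kept their direction and stayed past the threshold under each of 15 alternatives without a minimum change (105 of 105 values). Several of these could alter only the p-value of a member and not its direction. They were the filters on dim genes, the trend and robust prior, the replicate block and the choice of probe set, as each member has 1. Oca2 lay between -1.81 and -1.70, Gpr143 between -1.59 and -1.49 and Atp7a between 0.32 and 0.41. Against a minimum change of 1.2-fold, 6 of the 7 were called, all but Atp7a. There 1225 of all genes were called, with 0 left of the same families, of copper handling, of the calcium list and of the partners of Gpr143 and Trpm1. That test left 2 of the other channels and carriers, 1 proton pump gene, 5 copper enzymes, 5 sorting genes and 2 of the melanin and matrix genes. Leaving out the dimmer genes below the median level tests fewer genes, of which 4372 were called. It removed 14 genes of the same families, 3 of the other channels, 5 copper enzymes and 1 sorting gene. Among the genes left, calls were 1 for the same families, 10 for the other channels, 4 for copper enzymes and 13 for sorting. With all probe sets tested, 3089 of all genes were called, and the other channels had 3 and the proton pump 5. With a trend and robust prior 4856 were called, and the other channels had 11 and sorting 13. Copper handling had 7 with quantile normalization (4653 of all genes called) and with array weights (6088 called), and the calcium list 2 with quantile normalization. The replicate block left 5 proton pump genes and all 7 members called, and 3609 of all genes. No label says that the numbers pair samples. With each array left out in turn, the counts ran from 1 to 3 for the same families, from 3 to 6 for the other channels, from 5 to 6 for the proton pump, from 1 to 2 for the calcium list and from 2 to 4 for the partners. Of 150 values of the within-array pairs, 146 kept their sign. Median centring and the replicate block cannot change such a difference, so their values among the 150 could not differ. Slc45a2 against Mitf, at 0.00063, turned to -0.00032 with quantile normalization and ran from -0.039 to 0.043 with single arrays left out. The cause of these shifts was not tested. Testing all probe sets leaves these pairs as they are and gave no separate value for them.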

Other observations

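Genes beside the 7 on their chromosomes, taken as the nearest measured protein-coding gene on each side in RefSeq order (GRCm38.p6) and chosen after the data were seen, gave 2 falls among 14, and 12 were not called by limma. Over all genes 8.56% fell and 20.9% were called. Herc2, whose human counterpart holds a regulatory element of OCA2 tied to eye colour, was at 9.46 ± 0.041 untreated and 9.35 ± 0.049 with NRG1 (SD, n = 3 each), a change of -0.11 (limma, adjusted p = 0.246), beside -1.77 for Oca2. Gabrg3, on the other side of Oca2, was at -0.055 (adjusted p = 0.588). The semaphorin gene Sema6d, before Slc24a5, fell by 2.90 ± 0.061 (SE; limma, adjusted p = 1.82e-09), a steeper fall than that of any of the 7 genes, while Myef2 on the other side was at 0.053 (adjusted p = 0.774). Mtmr10, a myotubularin-related gene after Trpm1, fell by 0.72 ± 0.064 (adjusted p = 2.32e-05), and Klf13, before it, was at 0.049 (adjusted p = 0.657).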
